A study of Mus musculus with 6 samples.

Results

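The receptors that share the common gamma chain were examined in CD8+ T cells treated with an inhibitor of the histone demethylase LSD1. The genes are Il2ra, Il2rb, Il2rg, Il4ra, Il7r, Il9r, Il15ra and Il21r, taken by symbol from the deposited table of gene counts, which lists all 8 of them among its 16281 genes. CD8+ T cells came from spleens of OT1 mice on the C57BL/6 strain, genotype Tg(TcraTcrb)1100Mjb, so all samples share 1 transgenic T-cell receptor, which recognises ovalbumin. All cultures were activated for 48 h with antibodies to CD3 and CD28 plus IL-2 at 20 ng/mL and then expanded with IL-2 for 3 days. GSK2879552 (GSK), an irreversible LSD1 inhibitor, was present throughout at 0.5 μM in 3 samples, and 3 samples received vehicle (Veh). The paper names 3 separate mice and gives 3 mice per group. The age of the mice is not given in the sources used here. Whether same-numbered GSK and Veh cultures came from the same mouse is not stated. Poly(A) RNA was sequenced at the end of expansion.

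The common gamma chain, encoded by Il2rg, is a signalling subunit used by the receptors for IL-2, IL-4, IL-7, IL-9, IL-15 and IL-21. Each cytokine is recognised through further chains of its own: the alpha chains of the IL-4, IL-7, IL-9 and IL-21 receptors pair directly with the gamma chain, whereas IL-2 and IL-15 both signal through the beta chain (Il2rb) and the gamma chain and differ in their alpha chains (Il2ra, also called CD25, and Il15ra). The gamma chain carries the kinase JAK3 and the partner chain carries JAK1, and the receptors activate STAT5, STAT3 or STAT6. In CD8+ T cells IL-2 drives expansion after activation, while IL-7 and IL-15 are known for maintaining memory cells.

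The total count per sample lay between 18288447 and 19846720. Markers of the labelled cell type were high in all samples, with the 5 CD8 T cell markers (Cd3d, Cd3e, Cd3g, Cd8a and Cd8b1) summing to between 1937 and 2036 CPM in Veh and between 1752 and 1869 CPM in GSK, while Cd4 averaged 1.19 CPM in Veh and 0.967 CPM in GSK. CPM are counts scaled to a common library total, after TMM scaling of the totals. Of these markers, Cd3d, Cd3e and Cd3g were lower in GSK at an adjusted p under 0.05, by less than 1.5-fold each. Over all genes tested, 15.5% were lower at that adjusted p. Counts of any 2 replicates differed by more than sampling noise (the chi-square divided by its degrees of freedom was 4.08 to 9.42). An exact permutation test of a single value cannot go under a two-sided p of 0.1 with 3 samples a group, so genes were tested in the edgeR fit across 11698 genes, with Benjamini-Hochberg adjustment over all of them. These p-values measure the spread between these cultures only, which the paper describes as 3 mice per group. As the samples are bulk RNA, fewer cells that express a gene and less RNA per cell cannot be told apart.

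Il2ra rose with GSK, Il2rg rose slightly, Il4ra fell, and for the other 4 tested receptor genes the test was not passed. The first of these, Il2ra, encodes the alpha chain that gives the IL-2 receptor its high affinity. It was at 845, 884 and 833 CPM in the Veh samples and at 1349, 1252 and 1255 CPM in the GSK samples. The lowest GSK sample was therefore far above the highest Veh sample, and the spread within either group was small (854 ± 26.7 CPM in Veh and 1285 ± 55.5 CPM in GSK, SD, n = 3). On the log2 scale the fold change (log2FC) was 0.59 (SE 0.038, adjusted p = 6.36e-07), a 1.505-fold higher level with a 95% interval from 1.42 to 1.59. Il2ra had the 17th smallest p of the 11698 genes tested. Its fold change sits at the threshold of 1.5 that defines a call here, so it was past both thresholds with all samples and fell short of the fold without Veh replicate 1 (log2FC 0.58), Veh replicate 3 (0.57) or GSK replicate 1 (0.55), with an adjusted p of at most 3.52e-05 over all alternatives.

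**Figure D1:**
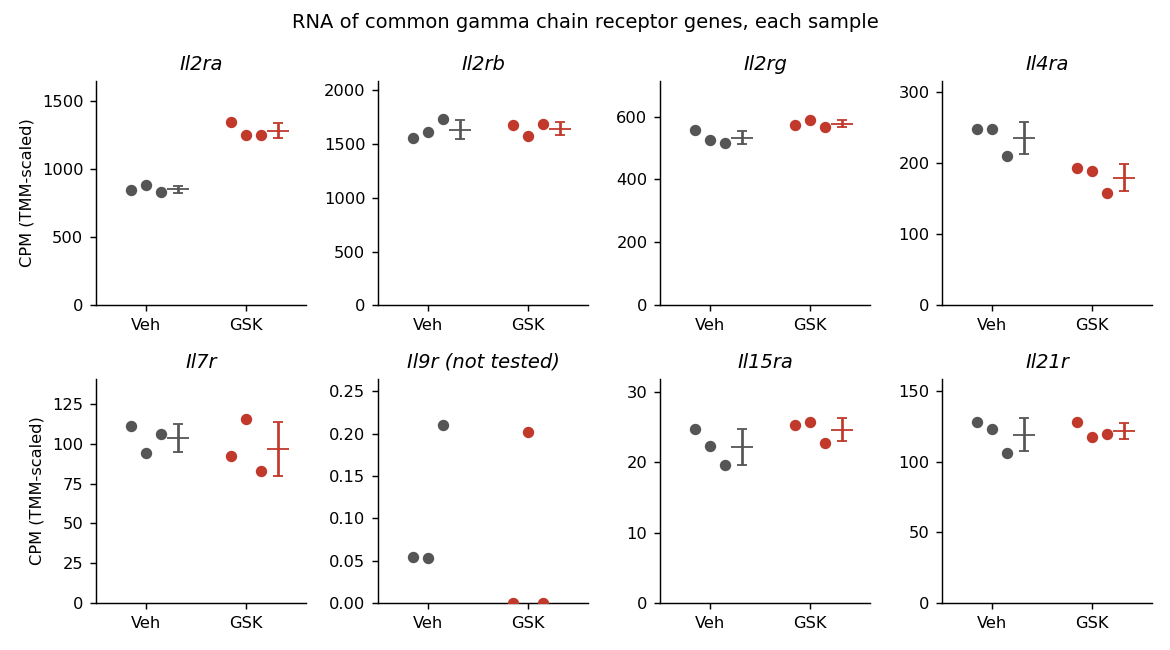
CPM of the 8 receptor genes (vertical axes, each from 0) in 3 Veh samples (grey points) and 3 GSK samples (red points), with mean and SD to the right of the points for the 7 tested genes. The groups are apart for Il2ra (833 to 884 CPM in Veh, 1252 to 1349 CPM in GSK), Il2rg and Il4ra, and overlap for the other genes.

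The signalling chains of the same receptor moved little or not detectably. Il2rb, the beta chain shared by the IL-2 and IL-15 receptors, had 1555, 1613 and 1730 CPM in Veh and 1676, 1575 and 1683 CPM in GSK. The groups overlapped, and the mean was 1633 ± 89.1 CPM in Veh and 1645 ± 60.4 CPM in GSK (SD, n = 3). Its log2FC was 0.010 (SE 0.041, adjusted p = 0.869), and the 95% interval of the fold ran from 0.947 to 1.07. Il2rg, the gamma chain itself, had 557, 527 and 516 CPM in Veh and 575, 590.5 and 568 CPM in GSK. All GSK samples were above all Veh samples, with a log2FC of 0.11 (SE 0.039, adjusted p = 0.0371), a rise of 1.08-fold. Il2rg did not pass without Veh replicate 2 (adjusted p = 0.117), Veh replicate 3 (0.150), GSK replicate 1 (0.104) or GSK replicate 2 (0.0724). Its adjusted p ran from 0.0260 to 0.150 over the alternatives. A protein-coding gene model of GENCODE vM21, Gm20489, whose span covers Il2rg, shares 728 exonic bases with Il2rg on the same strand, so the count of Il2rg is uncertain there. Gm20489 is not among the genes of the deposited table.

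Il4ra, the alpha chain of the IL-4 receptor, was the member that fell. It was at 249, 249 and 210.2 CPM in Veh and at 193, 189 and 158 CPM in GSK, and every GSK sample was below every Veh sample. The mean went from 236 ± 22.2 CPM to 179.8 ± 19.3 CPM (SD, n = 3), a log2FC of -0.39 (SE 0.094, adjusted p = 0.0165), which is 1.31-fold lower. The adjusted p was just over the threshold without Veh replicate 1 (0.0536), Veh replicate 2 (0.0508) or GSK replicate 2 (0.0532) and without the filter on low counts (0.0528), and ran from 7.63e-06 to 0.0536 over the alternatives. An antisense gene of GENCODE vM21, Gm44876, covers 571 exonic bases of Il4ra on the opposite strand. The library kit keeps the strand, but the strand setting of the counting is not given in the sources used here.

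The other private chains differed by less than the spread between replicates. Il7r, which encodes the alpha chain of the IL-7 receptor and is widely used as a mark of memory precursors, was at 111, 94.3 and 106 CPM in Veh and at 92.6, 116 and 82.8 CPM in GSK. The highest and the lowest of the 6 values were both GSK samples, so the groups overlapped fully. Its log2FC was -0.10 (SE 0.13, adjusted p = 0.626), with a 95% interval of the fold from 0.742 to 1.18. This value depended on single samples. Without GSK replicate 2 the log2FC was -0.25 (adjusted p = 0.0218), and without GSK replicate 3 it was 0.0014 (adjusted p = 0.995). These are the ends of the range of the adjusted p over the alternatives.

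Il15ra, which presents IL-15 to neighbouring cells, was at 24.7, 22.3 and 19.6 CPM in Veh and at 25.4, 25.7 and 22.7 CPM in GSK. The groups overlapped, with a log2FC of 0.15 (SE 0.093, adjusted p = 0.241) and a 95% interval of the fold from 0.965 to 1.27. Il21r, the receptor chain for IL-21, was at 128, 123 and 106 CPM in Veh and at 128, 118 and 119 CPM in GSK. Its groups overlapped too, with a log2FC of 0.029 (SE 0.067, adjusted p = 0.772) and a 95% interval of the fold from 0.922 to 1.13. Il9r, the receptor chain for IL-9, had 1, 1 and 4 counts in Veh and 0, 4 and 0 counts in GSK. It did not pass the filter on low counts, and at this depth, where 3 counts correspond to 0.164 CPM in the smallest library, no difference was detectable.

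**Figure D2:**
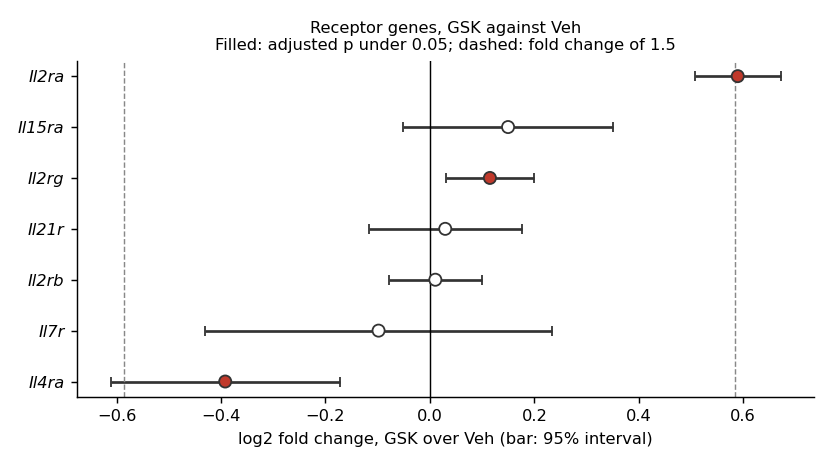
Log2FC of GSK over Veh (horizontal axis) for the 7 tested receptor genes, with 95% intervals from the fit across all genes; filled points passed an adjusted p of 0.05 and dashed lines mark a fold change of 1.5. Il2ra lies on the upper dashed line (0.59), Il2rg lies just above 0 (0.11), Il4ra lies below 0 (-0.39), and the intervals of the other 4 genes include 0.

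Of the 8 receptor genes, 7 passed the filter on low counts, and 3 of these passed an adjusted p of 0.05, 2 higher and 1 lower. Over all genes tested, 32.1% passed, with 16.6% higher and 15.5% lower, so the count alone sets these genes no further apart than that background. Past both the adjusted p and the fold change of 1.5 was Il2ra alone of the 7, where 6.32% of all genes tested were called, 2.22% higher and 4.09% lower. The groups did not overlap for 3 of the 7 receptor genes and for 46.7% of all genes tested. The median log2FC of the 7 was 0.029, beside -0.0039 over all genes tested.

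Levels of different genes were compared per kilobase of merged exons (GENCODE vM21). In Veh the 3 chains of the IL-2 receptor stood above all others, with Il2rb at 381 ± 20.8, Il2rg at 223 ± 8.73 and Il2ra at 149.6 ± 4.68 CPM per kilobase (SD, n = 3). No sample values of these 3 genes overlapped between neighbours in the order. Il4ra (39.3 ± 3.71) and Il21r (35.9 ± 3.55 CPM per kilobase) followed and overlapped each other, then came Il7r at 22.3 ± 1.87, Il15ra at 4.99 ± 0.573 and Il9r at 0.0214 CPM per kilobase.

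In GSK the order at the top was the same, but Il2ra, at 225 ± 9.71 CPM per kilobase, came close to Il2rg at 242 ± 4.92. Their samples were still apart, by 236 CPM per kilobase in the highest Il2ra sample and 238 CPM per kilobase in the lowest Il2rg sample. Il21r (36.6 ± 1.69) stood above Il4ra (29.9 ± 3.21 CPM per kilobase) without overlap, the reverse of their order in Veh. The length of the longest protein-coding transcript was an alternative chosen after seeing the data. With it, Il21r was above Il4ra in Veh as well (47.7 and 44.9 CPM per kilobase). The place of these 2 genes in Veh thus depends on the length used. By that length Il2rg was at 346 and Il2ra at 291 CPM per kilobase in GSK, so how close they came depends on it too.

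**Figure D3:**
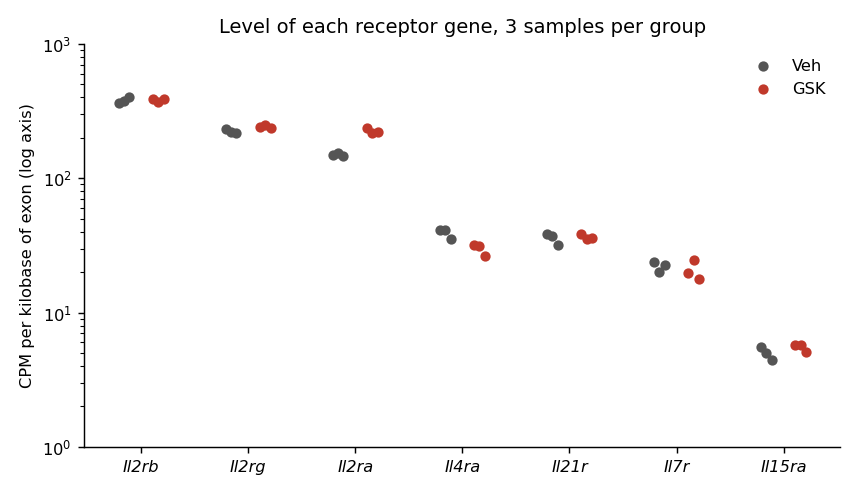
Level of the 7 tested receptor genes in CPM per kilobase of merged exons (vertical log axis) in 3 Veh samples (grey) and 3 GSK samples (red). Il2rb, Il2rg and Il2ra lie above 100 CPM per kilobase in every sample, Il4ra, Il21r and Il7r lie between 17.8 and 41.5, and Il15ra lies between 4.41 and 5.78.

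Ratios between chains within a sample do not depend on the scaling of the libraries. The ratio of Il2ra to Il2rb, per kilobase, was 0.408, 0.412 and 0.361 in Veh and 0.605, 0.597 and 0.560 in GSK. The ratio of Il2ra to Il2rg was 0.635, 0.702 and 0.674 in Veh and 0.982, 0.886 and 0.924 in GSK. In both ratios the groups were apart, so the RNA of the alpha chain was higher relative to either signalling chain in all GSK samples. The ratio of Il2rb to Il2rg overlapped, at 1.71 ± 0.155 in Veh and 1.59 ± 0.0891 in GSK (SD, n = 3).

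Il4ra fell against the gamma chain (ratio 0.176 ± 0.0131 in Veh and 0.124 ± 0.0119 in GSK) and against its neighbour Il21r (1.10 ± 0.0218 and 0.818 ± 0.0805), again without overlap. Il2ra to Il15ra went from 30.2 ± 3.27 to 40.8 ± 2.60, while Il7r and Il21r against Il2rg overlapped. Of the 8 ratios compared, the 5 without overlap each had an exact permutation p of 0.1 (two-sided), the smallest this design allows, and 0.160 after adjustment over the 8. All 5 hold Il2ra or Il4ra, and the ratios that overlapped hold neither. The ratios are therefore not independent of one another or of the tests of these 2 genes.

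**Figure D4:**
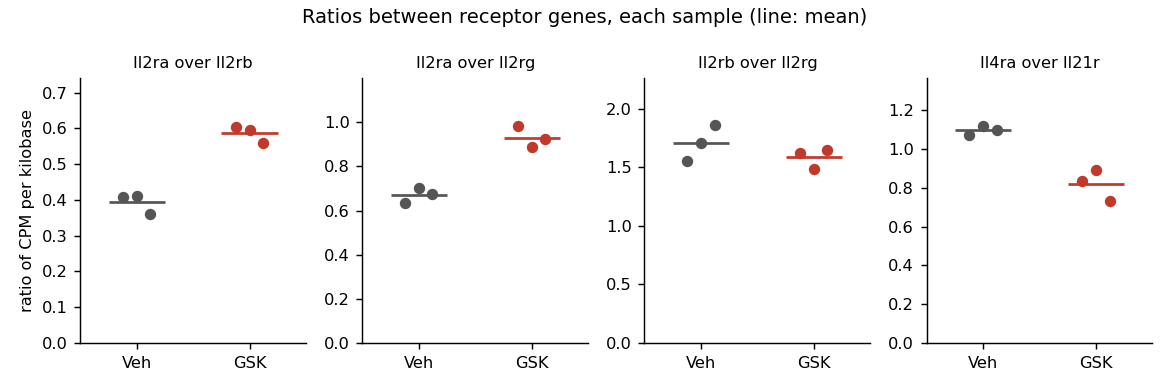
Ratio of CPM per kilobase between pairs of receptor genes (vertical axes, from 0) in 3 Veh samples (grey) and 3 GSK samples (red), with lines at the means. Il2ra rises against Il2rb (mean 0.394 to 0.587) and Il2rg (0.670 to 0.931) with the groups apart, Il4ra falls against Il21r (1.10 to 0.818), and Il2rb against Il2rg overlaps.

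Among these genes are 2 pairs of neighbours, and in both pairs the genes differed in whether they passed the adjusted p. Il2ra (GRCm38 chr2:11642792-11693194) and Il15ra (chr2:11705172-11733985) lie 11977 bases apart on the same strand, and Il2ra was higher in GSK while Il15ra did not pass the test. Il4ra (chr7:125552271-125579474) and Il21r (chr7:125603252-125634397) lie 23.8 kb apart, also on the same strand, and Il4ra fell while Il21r did not pass. The exact test of each pair's ratio, above, could not reach 0.05. A total of 12 genes of the deposited table that are not receptor genes flank the 8 loci. Of these, 11 were tested and 2 were past the adjusted p, both lower, where 32.1% of all genes tested were past it and 15.5% were lower. Nsmce1, 60.8 kb before Il4ra, had a log2FC of -0.53 (SE 0.077, adjusted p = 2.97e-04), and Fbh1, 8.59 kb after Il15ra, had a log2FC of -0.27 (SE 0.061, adjusted p = 0.00493). On the other side of Il2ra, Rbm17 was not past it (log2FC 0.13, adjusted p = 0.0818).

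The 250 bases before the annotated start of Il2ra and Il4ra, the members with the largest changes in either direction, are shown because they differ in the motifs they hold (RefSeq, GRCm38.p6, plus strand, chr2:11642542-11642791 and chr7:125552021-125552270). Capitals mark matches to a loose NF-kB motif (GGG and CC with any 5 bases between) and to AGGTGT, a T-box core, on either strand.
Il2ra: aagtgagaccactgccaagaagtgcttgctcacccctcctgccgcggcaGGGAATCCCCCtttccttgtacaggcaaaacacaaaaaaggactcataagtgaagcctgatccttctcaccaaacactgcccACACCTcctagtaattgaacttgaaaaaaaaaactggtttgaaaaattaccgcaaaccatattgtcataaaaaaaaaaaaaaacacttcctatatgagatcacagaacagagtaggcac
Il4ra: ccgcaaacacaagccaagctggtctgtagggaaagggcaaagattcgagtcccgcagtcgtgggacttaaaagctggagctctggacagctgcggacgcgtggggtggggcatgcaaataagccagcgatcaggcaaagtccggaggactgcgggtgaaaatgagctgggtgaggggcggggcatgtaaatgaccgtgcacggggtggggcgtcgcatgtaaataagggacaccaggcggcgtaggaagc
In Il2ra the NF-kB motif is matched on both strands at overlapping positions that begin at -201 and -200 from the start, and the T-box core begins at -119. Il4ra matched none of the 5 motifs searched. Of 32851 promoters of this length in the table, 45.8% held the NF-kB motif and 11.8% the T-box core. For the other 3, 7.02% held the STAT motif TTCNNNGAA, 3.17% the FOXO motif TGTTTAC and 9.14% AATCAC, a core of the GFI1 motif. Among the 7 receptor genes with a promoter in the table, Il7r held the STAT motif, Il21r the FOXO motif, Il15ra the T-box core, and Il15ra and Il21r the NF-kB motif.

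The cytokines that bind these receptors were nearly absent from the RNA. Of the 6 ligand genes, Il2, Il4, Il7, Il9 and Il15 were in the table and none passed the filter on low counts. Il15 had the most counts, 22 over the Veh samples and 11 over the GSK samples. Il2 had 12 and 9, Il4 had 0 and 5, all in GSK replicate 2, Il7 had 2 and 1, and Il9 had 0 and 1. The IL-2 of these cultures was supplied in the medium. Of 3 chains that form related receptors without the gamma chain, Crlf2, part of the TSLP receptor with Il7r, was tested (32.6 ± 0.722 CPM in Veh and 32.1 ± 2.46 in GSK, adjusted p = 0.835), and Il13ra1 had 16 and 30 counts.

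Among 11 kinases and transducers that carry the signal of these receptors, 5 were lower, 1 was higher and 5 did not pass the adjusted p, where 15.5% of all genes tested were lower and 16.6% higher. Jak3, the kinase bound to the gamma chain, went from 301 ± 3.51 CPM in Veh to 254 ± 21.5 CPM in GSK (log2FC -0.24, adjusted p = 0.00504). Jak1, its partner, did not (log2FC -0.12, adjusted p = 0.350). Stat5b (-0.16, adjusted p = 0.0183) and Stat6 (-0.13, adjusted p = 0.0282) fell slightly in log2FC, while Stat5a (-0.12, adjusted p = 0.139) and Stat3 (-0.059, adjusted p = 0.304) did not pass.

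Transcripts of Stat5a and Stat5b share 836 stretches of 31 bases, 11.7% and 15.2% of all stretches having a match in another gene, so their counts are uncertain. Jak3 is affected to a smaller extent, with 8.29% of its stretches matched, most of them in Insl3. Pik3r1, a regulatory subunit of PI3-kinase, went from 182 ± 6.53 to 130.4 ± 8.67 CPM (log2FC -0.48, adjusted p = 4.50e-05). Gab2, an adaptor, was low and fell past 1.5-fold, from 5.90 ± 1.39 to 3.57 ± 0.647 CPM (log2FC -0.72, adjusted p = 0.0179). Akt1 was the member that rose (log2FC 0.22, adjusted p = 0.00493). The median log2FC of the 11 was -0.12, beside -0.0039 over all genes tested. In some of the 11 alternatives Stat6 (4), Stat5b (2) and Gab2 (2) no longer passed the adjusted p. The count of lower genes went down to 3 without Veh replicate 1 or without Veh replicate 2.

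Of 7 feedback inhibitors of JAK and STAT signalling, Cish, Socs1 and Socs2 rose, 0 fell and 4 did not pass the adjusted p, where 16.6% of all genes tested were higher and 15.5% lower. The median log2FC of the 7 was 0.020, beside -0.0039 over all genes tested. Cish, a SOCS family protein induced by STAT5, went from 126 ± 13.1 CPM in Veh to 183 ± 8.14 CPM in GSK (log2FC 0.53, SE 0.068, adjusted p = 2.26e-04). Socs1 went from 71.2 ± 7.57 to 91.2 ± 4.03 CPM (0.36, adjusted p = 0.00235) and Socs2 from 70.6 ± 5.35 to 85.6 ± 0.425 CPM (0.28, adjusted p = 0.00302). All 3 had their groups apart and stayed past the adjusted p in every alternative. Socs3, the inhibitor most tied to STAT3, had a log2FC of -0.28 (adjusted p = 0.0694). The phosphatases Ptpn2 (-0.0044, adjusted p = 0.952) and Ptpn6 (-0.10, adjusted p = 0.0856) and the adaptor Sh2b3 (0.020, adjusted p = 0.854) did not pass. No inhibitor was lower at the adjusted p in the main edgeR fit or by DESeq2, and 2 were at an unadjusted p under 0.05. Socs3 did pass, lower, in 3 of the 11 alternatives, such as without GSK replicate 1 (adjusted p = 0.0408).

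Of 13 genes known to be induced by IL-2 or STAT5, 9 were higher, 0 were lower and 4 did not pass by edgeR, with 11 higher and 0 lower at an unadjusted p under 0.05. DESeq2 gave 8 higher and 0 lower. By edgeR, 16.6% of all genes tested were higher and 15.5% lower. Cish and Socs2 are also in the list of inhibitors, and the rise of Osm, Prf1 and Gzmb was known from earlier results of these data. The others that rose were Bcl2l1, which encodes the survival protein Bcl-xL (61.8 ± 1.30 CPM in Veh and 89.1 ± 5.58 CPM in GSK, log2FC 0.53, adjusted p = 3.25e-05), and Ccnd2, which encodes cyclin D2 (434 ± 23.5 and 579 ± 7.85 CPM, log2FC 0.42, adjusted p = 2.48e-05). Ccnd3 (0.15, adjusted p = 0.0106) and the kinase gene Pim1 (0.11, adjusted p = 0.0425) rose slightly. Pim1 did not pass the adjusted p in 8 of the 11 alternatives, and Gzmb did not in 3. Bcl2 (0.12, adjusted p = 0.114), Myc (0.17, adjusted p = 0.0908), Mcl1 (-0.034, adjusted p = 0.616) and Pim2 (-0.079, adjusted p = 0.212) did not pass. The median log2FC of the 13 was 0.28, beside -0.0039 over all genes tested. The paper probed proteins of IL-2 signalling by immunoblot and reports no effect of GSK on the main pathways below that receptor. Which cytokine or pathway moved these genes was not tested.

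**Figure D5:**
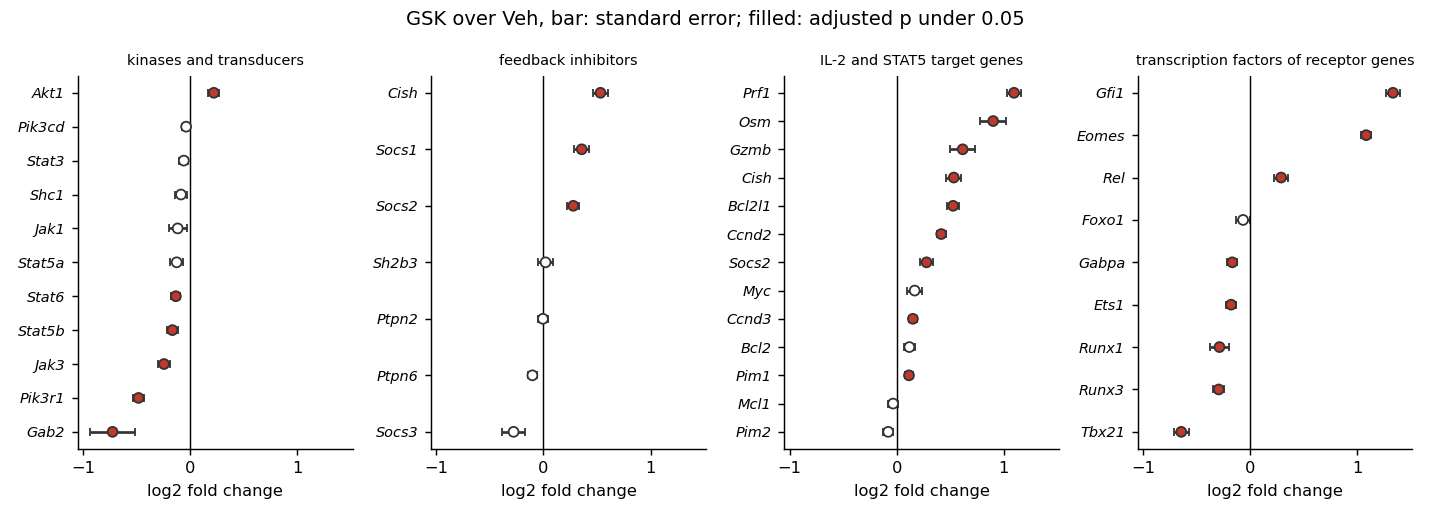
Log2FC of GSK over Veh (horizontal axes) with standard errors for the tested genes of 4 lists around the receptors; filled points passed an adjusted p of 0.05. Feedback inhibitors Cish, Socs1 and Socs2 and 9 of 13 IL-2 and STAT5 target genes lie above 0 as filled points, and 5 of 11 kinases and transducers lie below 0 as filled points.

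Of 9 transcription factors known to act on Il7r, Il2ra or Il2rb, 3 rose, 5 fell and Foxo1, an activator of Il7r, was not past it (log2FC -0.065, adjusted p = 0.453). Gfi1, a repressor of Il7r that recruits LSD1, rose from 44.99 ± 3.32 to 113 ± 7.45 CPM (1.33, adjusted p = 6.37e-08), while Gabpa, an activator of Il7r, fell slightly (-0.17, adjusted p = 0.0152). Eomes and Tbx21, both known as activators of Il2rb, moved in opposite directions (1.08, adjusted p = 1.49e-08, and -0.64, adjusted p = 4.56e-05), with Eomes 2.12-fold higher and Tbx21 1.56-fold lower. Rel, an NF-kB subunit known to act on Il2ra, rose (0.29, adjusted p = 0.00447). Runx3 (-0.29, adjusted p = 0.00100), Runx1 (-0.29, adjusted p = 0.0269) and Ets1 (-0.18, adjusted p = 0.0106) fell. In some of the 11 alternatives Runx1 (6), Gabpa (2) and Ets1 (1) no longer passed the adjusted p. The count of lower factors was 2 without Veh replicate 1 and 3 without GSK replicate 1. The median log2FC of the 9 was -0.17, and 16.6% of all genes tested were higher and 15.5% lower. The changes of Gfi1, Eomes and Tbx21 were known from earlier results of these data.

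Markers of other cells were measured beside these genes. The 4 NK cell markers summed to 124 to 145 CPM in Veh and 185 to 190 CPM in GSK (184.7 to 189.6), nearly all of it Klrk1, which activated CD8+ T cells also express. Of the 3 NK cell markers tested, 2 rose, Klrk1 (log2FC 0.43, adjusted p = 2.08e-04) and Tyrobp (log2FC 1.43, adjusted p = 0.0472). Tyrobp was low and went from 0.322 ± 0.246 to 0.878 ± 0.193 CPM with the groups apart. It had 5, 11 and 2 counts in Veh and 17, 21 and 13 in GSK. Over all genes tested, 16.6% were higher at the adjusted p and 46.7% had their groups apart. Klrb1c did not pass (2.07 ± 0.477 and 3.03 ± 0.675 CPM, adjusted p = 0.127), and Ncr1 had 1 count in 1 GSK sample and 0 elsewhere. The 3 CD4 T cell markers summed to 43.1 to 52.9 CPM in Veh and 39.2 to 44.8 CPM in GSK, most of it Zbtb7b. The 5 B cell markers lay between 5.78 and 7.94 CPM in Veh and between 5.53 and 6.53 CPM in GSK. The 6 myeloid markers lay between 2.79 and 4.68 CPM in Veh and between 1.30 and 2.83 CPM in GSK. Of these, Adgre1 had 1, 1 and 0 counts in Veh and 0 in all GSK samples. Spi1 had 0, 1 and 0 counts in Veh and 2, 2 and 0 in GSK, and both genes were too low to compare. The 4 erythroid markers stayed at or below 0.313 CPM. The part of these cells in the differences of the receptor genes was not tested.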

How the data were processed

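RNA of 3 GSK and 3 Veh cultures was measured. The authors trimmed reads with Trimmomatic, mapped them to GRCm38 with hisat2 (v2.1.0) and obtained gene counts from HTSeq-count (v0.11.2), and the deposited values are these raw counts, not normalized. The annotation release and the strand setting are not given in the sources used here. Groups were compared in R (v4.3.3) with the robust quasi-likelihood test of edgeR (v4.0.16), with TMM scaling, filterByExpr and Benjamini-Hochberg adjustment over 11698 genes. Called genes were past 1.5-fold at an adjusted p of 0.05. Standard errors come from the F statistic. CPM use the TMM-scaled totals of tested genes. Positions are from the RefSeq gene table (GRCm38.p6) and lengths from GENCODE vM21. Members and lists were chosen with earlier results of these data known. Named genes are the 8 receptor genes, all list genes past the adjusted p (others of the lists may be named), the 3 genes most correlated with a called receptor gene, and flanking genes. Genes under deposited pathway terms were named after their values were seen. Alternatives were DESeq2 (v1.42.0), RLE size factors, other filters, the replicate block, other fold thresholds and leaving out each sample. On counts simulated for 11698 genes, 78% of 100 genes changed 1.5-fold and 85% of 100 changed 2-fold were recovered. Only these genes were changed, whereas 32.1% of all genes tested passed in the data, so recovery in the data may differ. Recovery meant the right direction at an adjusted p of 0.05, without the fold threshold, and 11 unchanged genes also passed that adjusted p. A result for 1 gene under these pathway terms is not reported here.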

Additional observations from a re-analysis of the deposited data

How the results depend on the processing

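The direction of Il2ra, Il2rg and Il4ra and of Il15ra held in all 11 alternatives. With the replicate block, Il2rg had a log2 fold change of 0.12 (adjusted p = 0.0655), so receptor genes higher at the adjusted p numbered 1 in place of 2. Il2ra and Il4ra stayed past the adjusted p. Deviations from the group means correlated at -0.052, -0.081 and 0.16 between Veh and GSK cultures numbered 1, 2 and 3, and not every sample correlated best with its own number, so the pairing rests on a number alone. The block gave 253 genes called higher and 447 lower, against 260 and 479. Without a filter on low counts Il4ra had a log2 fold change of -0.39 (adjusted p = 0.0528), so 0 receptor genes were lower. Feedback inhibitors lower at the adjusted p numbered 1, Socs3, both without the filter and with the block. At the adjusted p alone 1941 genes were higher and 1819 lower, and with a test against a fold change of 1.5, 69 and 65. With the longest coding transcript as length, 6 of 8 receptor genes kept their place in the level order in Veh.

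With 1 sample left out, receptor genes higher ran from 1 to 2 and lower from 0 to 1, kinases and transducers lower from 3 to 6, feedback inhibitors lower from 0 to 1 and transcription factors lower from 2 to 5. Log2 fold changes ran from 0.093 to 0.15 for Il2rg, from -0.47 to -0.31 for Il4ra, from -0.25 to 0.0014 for Il7r, from -0.049 to 0.086 for Il21r and from -0.023 to 0.054 for Il2rb, and from -0.063 to 0.037 for Crlf2, -0.031 to 0.018 for Ptpn2 and -0.062 to 0.067 for Sh2b3. The cause was not tested. Depth limits Il9r and the cytokine genes, which could not be tested.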

Other observations

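The deposited table assigns genes to pathways. Of 133 genes under JAK-STAT signaling, 89 were tested, with 21 higher and 16 lower past the adjusted p of 0.05, where 16.6% of all genes tested were higher and 15.5% lower, and the median log2 fold change was -0.023 beside -0.0039 over all genes tested. Past both thresholds, 7 were higher (Il10, Pik3r3, Ifng, Il24, Il6ra, Osm and Il2ra) and 2 lower, of which Ifngr2 is reported here, where 2.22% of all genes tested were called higher and 4.09% lower. Il6ra, the alpha chain of the IL-6 receptor, went from 3.65 CPM in Veh to 6.91 CPM in GSK (log2 fold change 0.92, standard error 0.26, adjusted p = 0.0199), though its groups overlapped. Pik3r3, another regulatory subunit of PI3-kinase, went from 2.39 to 6.38 CPM (1.41, standard error 0.18, adjusted p = 1.41e-04), opposite to Pik3r1. Ifngr2, a chain of the interferon gamma receptor, went from 14.6 to 9.26 CPM (-0.65, standard error 0.11, adjusted p = 6.05e-04).

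The genes whose log2 CPM followed Il2ra most closely over the 6 samples were Evi5, Ctsz and Csrnp1 (Pearson r = 0.997, 0.997 and 0.996). These samples form 2 separate groups in each of the genes, so the values mainly reflect that the genes were higher in GSK, with log2 fold changes of 1.35, 0.82 and 0.56.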
